A study of Rattus norvegicus with 3 samples.

Results

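Macrophages made up 409 of the 30641 kept cells of rat cochlear basal membrane, with 130 cells at P1, 155 at P7 and 124 at P14. They were chosen by their own transcripts: a cell was taken when C1qa, C1qb, Csf1r, Cd68, Aif1 and Mrc1 together gave at least 3 UMIs and at least 15 of every 10000 UMIs of the cell, and when it had no UMI of the B cell gene Cd79b. A UMI is a molecular tag that marks 1 captured transcript. P1, P7 and P14 stand for postnatal days 1, 7 and 14 of untreated Sprague-Dawley rats, and the methods name 40 rats for each stage. Each stage gave 1 pooled library made with 10x Genomics 3' chemistry, so stages have no replicates and were not tested against each other, and what is due to the stage cannot be told apart from what is due to its library. The spiral ganglion, spiral ligament and stria vascularis had been dissected away, red cells were lysed and dead cells were removed with beads before capture. The labels call all cells greater epithelial ridge cells, while the matrices hold many other cell types, macrophages among them. Levels are UMIs of a gene summed over cells, per 1000000 UMIs of those cells (CPM). Ranges in parentheses are 95% intervals, of the exact Poisson kind for a level, exact conditional binomial for a fold and Clopper-Pearson for a share, and they cover counting error only.

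Macrophages are phagocytes that settle in most tissues before birth and are kept there by signals through the receptor Csf1r. They engulf dead cells and debris, break them down in lysosomes, recycle the iron of haem, make the C1q proteins that open the classical complement pathway, and call in other leukocytes with chemokines. Part of them also show peptides to T cells on MHC class II molecules, which rats carry as RT1-D and RT1-B. In the cochlea, macrophages lie along the basilar membrane, in the nerve and beside vessels, and take part in clearing cells while the sensory epithelium is remodelled after birth.

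The 6 genes of the rule chose the cells, so their values are given only as a description. C1qa and C1qb, chains of C1q, stood at 4779 and 6736 CPM at P1, 2356 and 2520 CPM at P7 and 1956 and 2722 CPM at P14, while the other kept cells had at most 14.96 CPM of either gene. Csf1r stood at 1052, 1183 and 928 CPM in the same order, and Mrc1, the mannose receptor, at 1652, 1094 and 1348 CPM. The 6 genes together took a median of 196 per 10000 UMIs of a macrophage at P1, 101 at P7 and 114 at P14. Just inside the limit of 15, between 15 and 20 per 10000, lay 3 cells at P1, 10 at P7 and 10 at P14, with medians of 15.6, 18.7 and 18.0 per 10000. Just outside, between 10 and 15, lay 7, 11 and 14 cells, with medians of 11.7, 11.6 and 12.2 per 10000. Most other kept cells had no UMI of these 6 genes, namely 96.0% at P1, 81.9% at P7 and 92.6% at P14.

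The 409 cells were clustered among themselves, which gave 8 clusters. Against the other kept cells, 7 of them had 4 or 5 genes of the rule among the first 10 genes. The rule chose the cells by these genes, so this is a description and no check of the label. Against the other macrophages, however, clusters 3, 5 and 6 were led by genes of other cochlear tissue: Crym, Otor and Pou3f4 of the mesenchyme in cluster 3 (55 cells), glial genes, the myelin gene Mbp among them, in cluster 5 (31 cells), and fibrocyte and fibroblast genes in cluster 6 (28 cells, each of them from P14). Scrublet, a doublet caller, marked 27 cells of cluster 3 and 10 cells of cluster 5. It marked 22 macrophages at P1, 20 at P7 and 1 at P14, but at P14 it marked only 0.0379% of the kept cells and so did not work there, and no cell was removed as a doublet. Cluster 4 (37 cells) was led by S100a8 and Fcnb and was left unnamed. Its 14 cells of P14 had no UMI of C1qa and 1 cell with C1qc, so they met the rule through its other genes and go against the name macrophage.

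**Figure D1:**
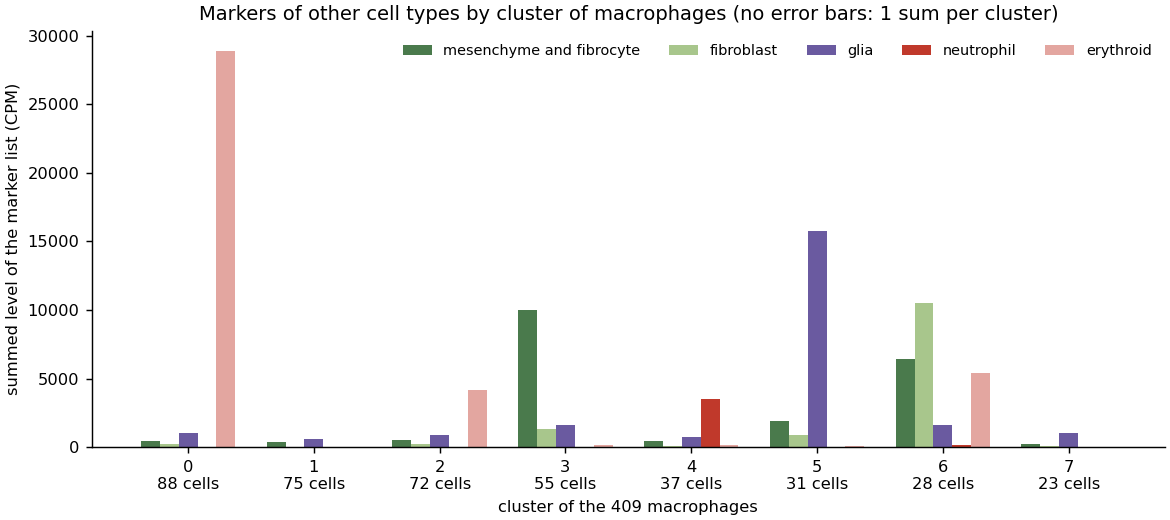
Bars give the summed level of 5 marker lists of other cell types (y axis, CPM) in each of the 8 clusters of the 409 macrophages (x axis, with the number of cells). Mesenchyme markers reach 9985 CPM in cluster 3, glia markers 15728 CPM in cluster 5, fibroblast markers 10522 CPM in cluster 6 and neutrophil markers 3522 CPM in cluster 4, and erythroid markers 28868 CPM in cluster 0, while 5 cells held 97.4% of the haemoglobin UMIs of P14.

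The 258 cells of clusters 0, 1, 2 and 7 are called unmixed macrophages here, 93 at P1, 89 at P7 and 76 at P14. The name refers only to the mesenchyme, glia, fibroblast and neutrophil lists, by which clusters were set aside. This set of cells was drawn after the values were seen, and its values stand beside those of all macrophages. Different clusters hold it at each stage: cluster 1 gave 74 of its cells at P1, cluster 2 gave 63 at P7 and cluster 0 gave 75 at P14, and cluster 7, with 8, 14 and 1 of its cells, was led by the proliferation genes Ube2c and Top2a. Cells with proliferation genes also lay in other clusters. Cluster 0 was led by LOC103694857 and a haemoglobin gene, Hba-a2_ENSRNOG00000029886. The latter stood there at 18243 CPM, in 39.8% of its cells, against 534 CPM in the other macrophages. The mesenchyme list of 11 genes summed to 1857 CPM in all macrophages at P1, 4418 CPM at P7 and 2678 CPM at P14, against 10293, 10832 and 10003 CPM in the other kept cells. In the unmixed macrophages it summed to 338, 494 and 438 CPM. The glia list of 8 genes summed to 1380, 2801 and 5451 CPM in all macrophages and to 647, 994 and 1132 CPM in the unmixed ones. How far RNA of other cells entered the levels of all macrophages was not tested.

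Markers of several further cell types were low, and those of others were not. The dendritic list, 10 genes among them Flt3, Xcr1 and Clec9a, summed to 28.8, 33.0 and 29.5 CPM at P1, P7 and P14, with 5, 6 and 6 of its genes at 0. In all macrophages the T and NK list stayed at or under 33.1 CPM and the melanocyte list at or under 11.05 CPM. The B cell list, whose gene Cd79b the rule sets at 0, summed to 19.8, 45.4 and 158 CPM. The endothelial list summed to 210, 268 and 269 CPM, against 141, 173 and 1163 CPM in the other kept cells. The fibroblast list summed to 241, 798 and 3746 CPM in all macrophages and to 72.0, 181 and 255 CPM in the unmixed ones. The neutrophil list summed to 442, 6.61 and 773 CPM in all macrophages and to 5.44, 5.38 and 31.9 CPM in the unmixed ones. Summed haemoglobin RNA was higher at the later stages, in macrophages and in the other kept cells. The erythroid list summed to 1521, 2372 and 8887 CPM in macrophages and to 767, 1559 and 3744 CPM in the other kept cells. Unmixed macrophages held more of it than all macrophages at each stage, with 2276, 4871 and 15285 CPM. In all macrophages 5 cells held 97.6% of the haemoglobin UMIs at P1, 93.8% at P7 and 97.4% at P14. The osteoclast list summed to 476, 102 and 390 CPM, and 1 cell at P1 held 70.9% of its UMIs and 1 cell at P14 held 76.4%. Neither of these cells had a UMI of C1qa, and the P1 cell had 182 UMIs of Ctsk and 129 of Acp5, a protease and a phosphatase of bone-resorbing cells. The P1 cell is in cluster 1 and so in the unmixed set, where the list summed to 635, 44.9 and 47.8 CPM, and the P14 cell is in cluster 4, outside it. The libraries shared 60, 19 and 25 barcodes pair by pair, and no barcode was shared by macrophages of different stages.

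Macrophages were 1.02% of kept cells at P1 (0.851 to 1.21), 1.23% at P7 (1.05 to 1.44) and 2.35% at P14 (1.96 to 2.79). The P14 interval lay above those of P1 and P7, which overlapped. The unmixed macrophages gave 0.728%, 0.707% and 1.44% in the same order, again with the P14 interval (1.14 to 1.80) above the others. When only cells under 10% mitochondrial UMIs were kept, the percent of kept cells that are macrophages at P7 was 0.722. Macrophages of P7 had a median mitochondrial share of 10.6% against 7.94% at P1 and 4.47% at P14. The P14 library held 5281 kept cells against 12779 and 12581, the removal of dead cells and the dissection act on these shares, and their part was not tested. The libraries held 6358 to 14501 barcodes and 12616390 to 114285848 UMIs, fewest at P14. Median depth was 7676, 7060 and 1768 UMIs per macrophage and 6557, 6874 and 1612 UMIs per other kept cell. All macrophages of P14 together gave 271518 UMIs, so 1 UMI was worth 3.68 CPM there, against 0.900 CPM at P1 and 0.826 CPM at P7.

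Beside the genes of the rule, 280 of 2682 genes with a mean of at least 50 CPM were 2-fold or more above the other kept cells at each of the 3 stages, with 10 CPM added to each level. This is the contrast that chose the cells, so the genes describe them and support nothing. C1qc, the remaining C1q chain, led with 5156, 2619 and 2033 CPM against at most 11.8 CPM in the other kept cells. Next came Clec10a, a lectin of resident macrophages, Trem2, a lipid receptor of phagocytes, and Fcer1g, which carries the signal of Fc receptors. Clec10a stood at 951, 880 and 656 CPM and Trem2 at 706, 660 and 401 CPM. In the unmixed macrophages these genes were close between stages, Clec10a at 1093, 1262 and 1132 CPM, Trem2 at 856, 940 and 717 CPM and Fcer1g at 2681, 2385 and 2399 CPM. Lyve1, Folr2, Pf4 and Cd163, which mark resident and perivascular macrophages, were in the same list of 20 leading genes. Microglia genes were sparse, with P2ry12 at 3.60, 22.3 and 58.9 CPM and Sall1 at 0, 0 and 7.37 CPM.

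**Figure D2:**
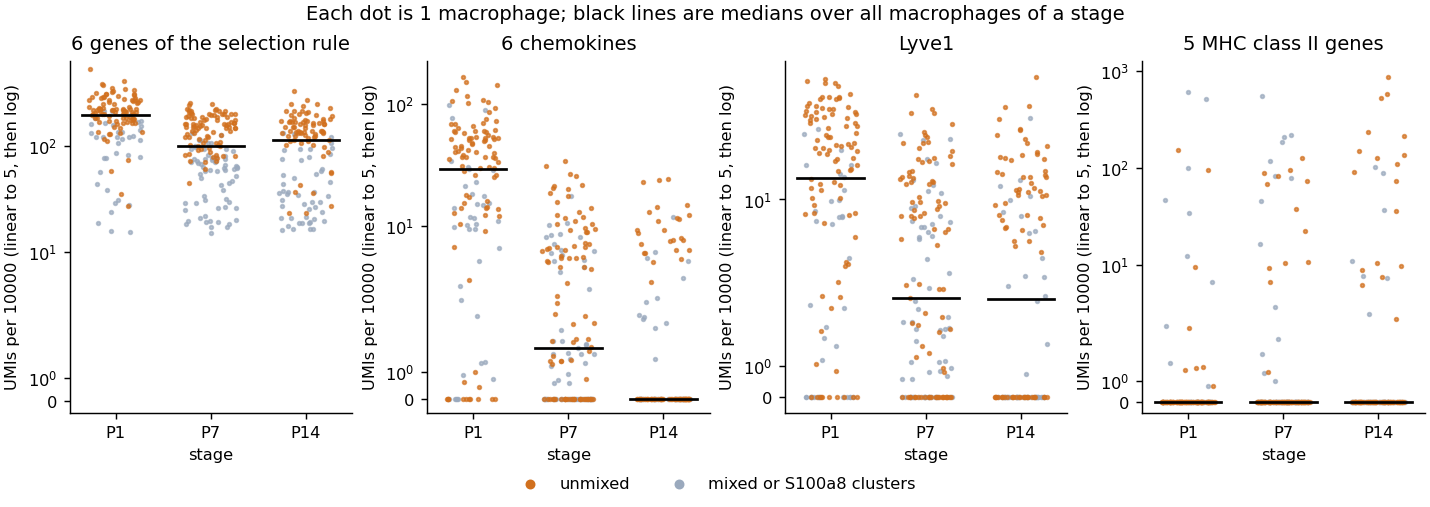
Each dot is 1 macrophage at P1, P7 or P14 (x axis), with orange for unmixed macrophages, grey for the rest and a black line at the median over all macrophages. The y axes give UMIs per 10000 of a cell, linear up to 5 and logarithmic above, for the 6 genes of the rule, 6 chemokines, Lyve1 and 5 MHC class II genes. Chemokine UMIs are in most cells at P1, with a median of 29.4 per 10000, and in fewer at P14, where the median is 0, while MHC class II UMIs are in few cells at every stage.

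Of 2688 genes with a mean of at least 50 CPM over the stages, 150 were past 2-fold higher at P7 than at P1 (5.58%) and 90 past 2-fold lower (3.35%). From P7 to P14, 302 were past 2-fold higher (11.2%) and 227 past 2-fold lower (8.44%). In the unmixed macrophages the shares of 2520 genes were 5.36% higher and 3.89% lower at P7, and 12.8% higher and 13.1% lower at P14. These shares are the background for the counts of named groups that follow, and they include counting noise, which is larger at P14. The median log2 ratio over all genes was 0.03 from P1 to P7 and -0.09 from P7 to P14, so the median gene stood level. Throughout, higher and lower mean past 2-fold with 10 CPM added, while the folds printed are plain ratios of CPM.

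Chemokines were 6 of the 10 leading genes lower at P7 than at P1. Of the 16 chemokine genes listed, 9 entered the comparison, and 6 of the 9 were lower at P7 and none higher, against the 3.35% of all genes that were lower. The 6 were Ccl2 and Ccl7, which draw monocytes through the receptor Ccr2, Ccl3 and Ccl4, which draw monocytes and lymphocytes, and Cxcl1 and Cxcl2, which draw neutrophils. Among the unmixed macrophages the same 6 of 11 were lower and 1, Ccl12, was higher, against 3.89% and 5.36% of all genes.

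Ccl3 stood at 949 CPM at P1 (892 to 1008), 160 CPM at P7 (138 to 184) and 136 CPM at P14 (95.9 to 188). P1 was 5.92-fold above P7 (5.08 to 6.94), and the intervals of P7 and P14 overlapped. Ccl4 stood at 512, 69.4 and 55.2 CPM, 7.38-fold higher at P1 than at P7 (5.86 to 9.40). Both genes thus had 1 high stage and a pair of low ones.

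Ccl2 stood at 556 CPM at P1 and 61.1 CPM at P7, 9.10-fold lower (7.14 to 11.7), and at 3.68 CPM at P14, from 1 UMI. Ccl7 stood at 507 and 91.7 CPM, 5.53-fold lower at P7 (4.50 to 6.84), and had no UMI at P14, which puts it at least 8.30-fold below P7 when 3 UMIs are taken for the stage. Ccl2 and Ccl7 were past 2-fold lower at both steps. Cxcl2 stood at 568, 24.0 and 29.5 CPM, 23.7-fold lower at P7 than at P1 (16.4 to 35.7). Cxcl1 stood at 232 CPM at P1 and 3.30 CPM at P7, from 4 UMIs, and had no UMI at P14, at least 21.0-fold below P1.

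At P1 levels in the other kept cells were far lower. At P14 this did not hold for Ccl2, Ccl7 and Cxcl1. After thinning no macrophage of P14 had a UMI of them, against 0.811%, 0.225% and 0.676% of the other kept cells. In the other kept cells Ccl3, Ccl4, Ccl7 and Cxcl2 stayed at or under 6.77 CPM, Ccl2 at or under 8.80 CPM and Cxcl1 at or under 15.3 CPM at every stage. After thinning each cell to 1000 UMIs, 95 of 129 macrophages of P1 had a UMI of at least 1 of the 6 genes (73.6%, 65.2 to 81.0), against 43 of 153 at P7 (28.1%, 21.1 to 35.9) and 21 of 109 at P14 (19.3%, 12.3 to 27.9). Unthinned, the shares were 87.7%, 62.6% and 30.6%. The other kept cells, thinned, had 1.97%, 0.523% and 2.23%. Among unmixed macrophages 74 of 92, 31 of 87 and 16 of 62 cells had such a UMI. The P1 level was spread over cells, since the 13 cells with most chemokine UMIs held 32.0% of them. Il1b, an inflammatory cytokine, was also highest at P1, with 157, 8.26 and 14.7 CPM, the last from 3 cells. It was 19.0-fold higher at P1 than at P7 (10.1 to 40.3), while Tnf had 3 UMIs at P1 and none later.

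**Figure D3:**
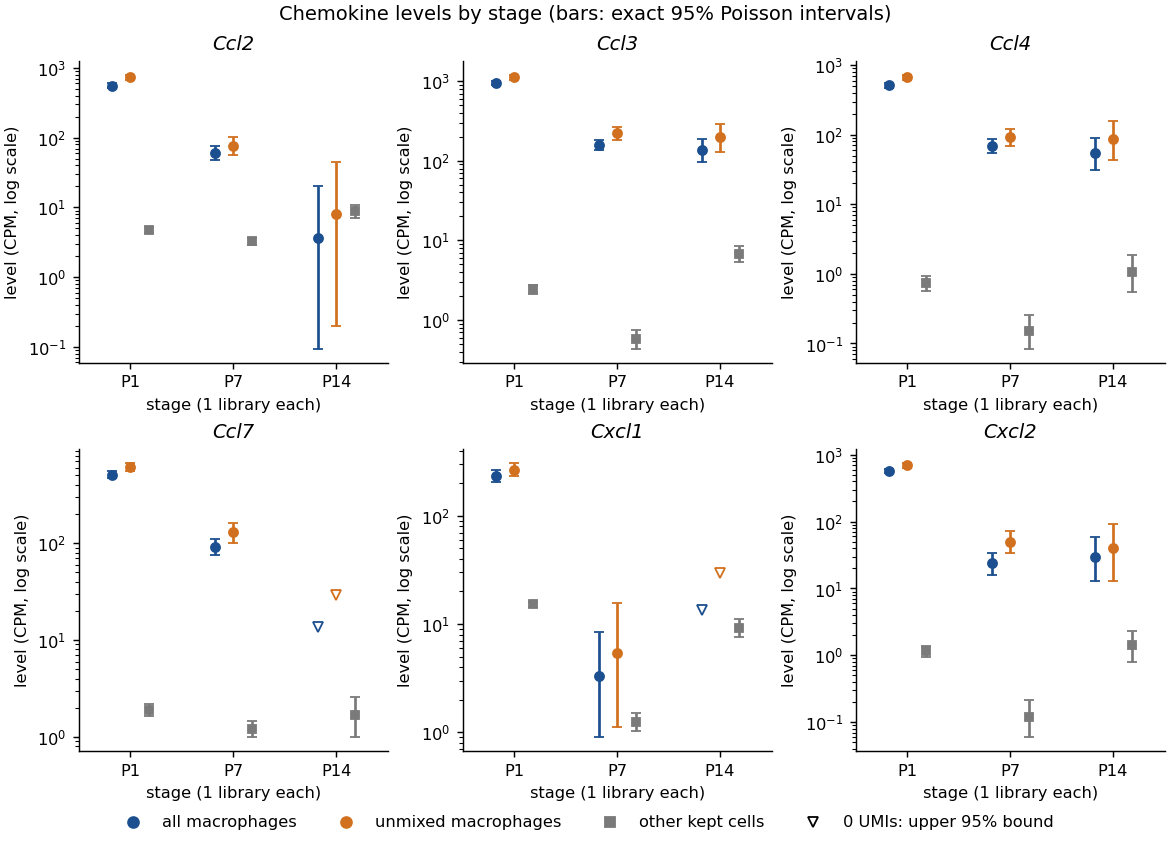
Points give the level of 6 chemokines (y axes, CPM on a log scale) at P1, P7 and P14 (x axes, 1 library each) in all macrophages (blue), unmixed macrophages (orange) and other kept cells (grey squares), with exact 95% Poisson intervals, and open triangles mark the upper bound where no UMI was found. In each panel P1 is the highest macrophage point, as with Ccl3 at 949 CPM, and the grey squares at P1 and P7 lie at or under 15.3 CPM.

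The early chemokine level came with another difference between the libraries. Of 11 immediate early and heat shock genes that entered, 6 (Fos, Jun, Junb, Egr1, Ier2 and Ier3) were lower at P7 than at P1. None was higher, and of all genes 3.35% were lower. These genes are switched on within minutes by many stimuli. The list summed to 6289 CPM in macrophages at P1, 2446 at P7 and 2442 at P14. In the other kept cells it summed to 4199, 2000 and 2786 CPM, so it was also higher at P1 outside the macrophages. Fos stood at 984, 251 and 206 CPM in macrophages and at 1142, 347 and 248 CPM in the other kept cells. Ier3 stood at 1190, 316 and 335 CPM in macrophages but at 179, 157 and 329 CPM in the other kept cells. The part that the activation of these genes, tissue handling or the stage itself has in the chemokine level was not tested.

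Entries for 8 of the 11 chemokine and MHC class II genes considered were in the RefSeq promoter table (build GRCr8), with 250 bases before to 50 after the annotated start. For Cxcl1 and Cxcl2, the chemokines with the largest P1 to P7 contrast, 120 bases before to 50 after the start are shown, because each holds a kappa B motif, the sequence that the factor NF-kappa B is known to read in inflammatory genes. Capitals mark the motif, GGAATTTCC in Cxcl1 starting 83 bases before the start and GGGATTTCC, the reverse complement of GGAAATCCC, in Cxcl2 starting 73 bases before it. On both strands GGAATTTCC is in 0.332% and GGAAATCCC in 0.326% of the 33469 promoters. The Ccl7 promoter held neither. A match is a description of the letters, and no binding was measured.
Cxcl1, chr14:17479272-17479441, minus strand: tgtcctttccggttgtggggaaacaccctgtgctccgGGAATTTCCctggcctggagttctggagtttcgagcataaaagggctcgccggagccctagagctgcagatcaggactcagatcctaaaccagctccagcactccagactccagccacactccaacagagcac
Cxcl2, chr14:17467206-17467375, minus strand: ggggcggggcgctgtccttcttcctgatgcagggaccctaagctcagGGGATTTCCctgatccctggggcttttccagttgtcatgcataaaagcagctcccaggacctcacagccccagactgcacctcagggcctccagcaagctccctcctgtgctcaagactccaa

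Other chemokines behaved otherwise. Ccl6, a macrophage chemokine, stood at 212, 219 and 796 CPM and was 3.63-fold higher at P14 than at P7 (3.02 to 4.37). Cxcl16, a membrane-bound chemokine that also takes up lipid, stood at 141, 76.0 and 258 CPM and was 3.39-fold higher at P14 than at P7 (2.45 to 4.68). Pf4 went from 2136 to 1331 and 744 CPM without passing 2-fold at either step. Unmixed macrophages held Ccl6 at 247, 319 and 1275 CPM at P1, P7 and P14, so its P14 level was not lower without the mixed clusters.

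Several genes of resident macrophages were highest at P1. Of 10 such genes that entered, 3 were lower at P7 (Cd163, Lyve1 and F13a1) and none higher, against 3.35% of all genes lower. At P14, 1 was higher and 2 were lower, against 11.2% and 8.44% of all genes. Among the unmixed macrophages 2 of 10 were lower at P7 and none higher, against 3.89% and 5.36% of all genes. At P14, 1 of these 10 was higher and 2 were lower, against 12.8% and 13.1% of all genes. Lyve1, a hyaluronan receptor, stood at 1956 CPM at P1 (1875 to 2040), 686 CPM at P7 (640 to 735) and 626 CPM at P14 (536 to 728). It was 2.85-fold higher at P1 than at P7 (2.63 to 3.09), and P7 and P14 overlapped. After thinning, 58.9%, 39.9% and 36.7% of macrophages had a Lyve1 UMI, against at most 1.05% of the other kept cells. F13a1, the A chain of coagulation factor XIII, went lower at both steps, from 465 to 102 and 25.8 CPM, 4.54-fold (3.72 to 5.56) and then 3.97-fold (1.87 to 10.1). With a mitochondrial limit of 10% the F13a1 step from P7 to P14 was no longer past 2-fold, at log2 -0.47 against -1.65. Cd163, the receptor for haemoglobin bound to haptoglobin, stood at 442, 199 and 228 CPM, but in the unmixed macrophages at 514, 293 and 390 CPM it did not pass 2-fold, nor did it after thinning, at log2 -0.45. Folr2, a folate receptor, stood at 536, 281 and 254 CPM, short of 2-fold at both steps. Maf, a transcription factor of resident macrophages, ran the other way with 45.0, 85.9 and 225 CPM and was higher at P14, although the other kept cells also went from 21.7 to 34.5 and 109 CPM.

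Several genes that handle haem and iron were lowest at P14. Of 9 that entered, 2 (Hmox1 and Cd163, also in the resident list) were lower at P7. At P14, 4 (Hmox1, Blvrb, Slc48a1 and Slc40a1) were lower, and none was higher at either step. Of all genes, 3.35% were lower at P7 and 8.44% at P14. Among the unmixed macrophages 1 of 9 was lower at P7 and 4 at P14, against 3.89% and 13.1% of all genes, and none was higher. Hmox1, the enzyme that opens the haem ring, stood at 1261 CPM at P1 (1196 to 1329), 453 CPM at P7 (416 to 492) and 118 CPM at P14 (80.6 to 166). It was 2.79-fold lower at P7 (2.52 to 3.08) and a further 3.84-fold lower at P14 (2.69 to 5.67), and no intervals overlapped. In the other kept cells it lay between 13.2 and 14.4 CPM. Blvrb, a biliverdin reductase, stood at 241, 281 and 77.3 CPM, and Slc48a1, a haem transporter, at 229, 131 and 55.2 CPM. One of the identifiers that carry the symbol Slc40a1, the iron exporter ferroportin (Slc40a1_ENSRNOG00000003872), stood at 134, 185 and 29.5 CPM. The ferritin chains Fth1 and Ftl1 went from 11693 and 7685 CPM at P1 to 4530 and 3830 CPM at P14, each under 2-fold per step. Summed haemoglobin RNA was higher at P14, as given above, but 5 macrophages held 97.4% of its UMIs there. Its part in these levels was not tested.

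MHC class II genes, which display peptides to T cells, had higher levels at later stages, in few cells, and in all macrophages the P14 step did not pass 2-fold under every setting. Of 6 genes of the list that entered, 2 were higher at P7 (RT1-Ba and RT1-Bb) and 4 at P14 (RT1-Da, RT1-Db1, RT1-Ba and RT1-Bb), against 5.58% and 11.2% of all genes, and none was lower. Among the unmixed macrophages 5 of 6 were higher at each step, now with Cd74, the invariant chain that loads these molecules. Of all genes in these cells, 5.36% were higher at P7 and 12.8% at P14. Cd74 stood at 489 CPM at P1, 780 at P7 and 1230 at P14 in all macrophages, and at 160 (133 to 192), 512 (454 to 574) and 2215 CPM (1963 to 2492) in the unmixed ones. RT1-Da stood at 43.5, 147 and 1514 CPM in the unmixed macrophages, 10.3-fold higher at P14 than at P7 (7.90 to 13.5). Of these 190 RT1-Da UMIs at P14, 123 came from 3 cells just past the rule, with under 30 UMIs of the rule genes per 10000. Without cells under 30 the P14 level of RT1-Da in the unmixed macrophages was 591 CPM, 4.02-fold above P7, and that of Cd74 was 1076 CPM, 2.10-fold above P7, and all 5 genes stayed past 2-fold at both steps. In all macrophages a threshold of 30 took the P14 step of RT1-Da, RT1-Db1, RT1-Ba and RT1-Bb under 2-fold, at log2 0.55, 0.66, 0.53 and 0.69, and RT1-Ba at P7 at log2 0.74. The P14 steps of RT1-Da, RT1-Db1 and RT1-Ba were log2 1.03, 1.14 and 1.03 as reported, and were also under 2-fold with a mitochondrial limit of 10%, at log2 0.05, 0.11 and 0.03, and with the rule of C1qa, C1qb and Csf1r alone, at 0.54, 0.65 and 0.52. Leaving out cells that Scrublet marked as doublets gave 0.74, 0.86 and 0.74. It marked 20 macrophages at P7 but 1 at P14, where it did not work, so this setting did not treat these stages alike. The S100a8 cluster, which the unmixed set leaves out, held 5616 CPM of Cd74 at P1, 6445 CPM at P7 and 31.8 CPM at P14. In the other kept cells Cd74 stood at 5.60, 7.46 and 77.4 CPM, so it was also higher at P14 outside the macrophages.

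These levels rest on a handful of cells. In all macrophages 5 cells held 89.6% of the UMIs of Cd74, RT1-Da, RT1-Db1, RT1-Ba and RT1-Bb at P1, 70.2% at P7 and 75.5% at P14, and in the unmixed macrophages 5 cells held 98.3%, 83.9% and 83.5%, so the Poisson intervals of the levels are too narrow as a measure of the difference between cells. By cells, 11 of 129 thinned macrophages had a UMI of these genes at P1 (8.53%, 4.33 to 14.7), 20 of 153 at P7 (13.1%, 8.17 to 19.5) and 21 of 109 at P14 (19.3%, 12.3 to 27.9). Neighbouring intervals overlapped. Among the unmixed macrophages it was 3 of 92 (3.26%, 0.678 to 9.23), 10 of 87 (11.5%, 5.65 to 20.1) and 14 of 62 (22.6%, 12.9 to 35.0), where those of P1 and P14 did not overlap. The other kept cells had 0.206%, 0.286% and 3.09%. Of the thinned macrophages with a Lyve1 UMI, 2 of 76 at P1 (2.63%, 0.320 to 9.18), 2 of 61 at P7 (3.28%, 0.3996 to 11.3) and 5 of 40 at P14 (12.5%, 4.19 to 26.8) also had one of these genes. Of those without a Lyve1 UMI it was 9 of 53 (17.0%, 8.07 to 29.8), 18 of 92 (19.6%, 12.03 to 29.1) and 16 of 69 (23.2%, 13.9 to 34.9). The shares with Lyve1 were the lower ones at every stage, with intervals apart at P7 only. In the unmixed macrophages the intervals overlapped at every stage, with 5.41% (0.661 to 18.2) against 16.0% (7.17 to 29.1) at P7.

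The promoters of the RT1 genes are shown because all 4 carry the same motif. It is CTGATTGG, the Y box read by the factor NF-Y, which together with an X box is known to drive MHC class II genes. On both strands it is in 3.50% of the 33469 promoters. Capitals mark it, 46 to 83 bases before the start and in the same orientation in each. The Cd74 promoter of the table did not hold these letters.
RT1-Da, chr20:4515295-4515464, plus strand: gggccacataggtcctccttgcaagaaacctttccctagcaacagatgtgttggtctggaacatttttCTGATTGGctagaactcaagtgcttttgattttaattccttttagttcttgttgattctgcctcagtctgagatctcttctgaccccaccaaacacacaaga
RT1-Db1, chr20:4560113-4560282, minus strand: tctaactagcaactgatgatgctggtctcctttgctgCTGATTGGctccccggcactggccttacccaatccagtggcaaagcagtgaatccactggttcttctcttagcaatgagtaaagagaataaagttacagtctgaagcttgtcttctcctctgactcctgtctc
RT1-Ba, chr20:4576937-4577106, plus strand: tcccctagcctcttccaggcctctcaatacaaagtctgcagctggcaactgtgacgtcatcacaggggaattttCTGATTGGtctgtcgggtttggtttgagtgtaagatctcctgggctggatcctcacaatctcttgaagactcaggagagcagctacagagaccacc
RT1-Bb, chr20:4604069-4604238, minus strand: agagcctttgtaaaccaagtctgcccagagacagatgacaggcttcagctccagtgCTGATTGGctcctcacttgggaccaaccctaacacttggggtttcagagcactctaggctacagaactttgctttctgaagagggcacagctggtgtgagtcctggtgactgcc

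**Figure D4:**
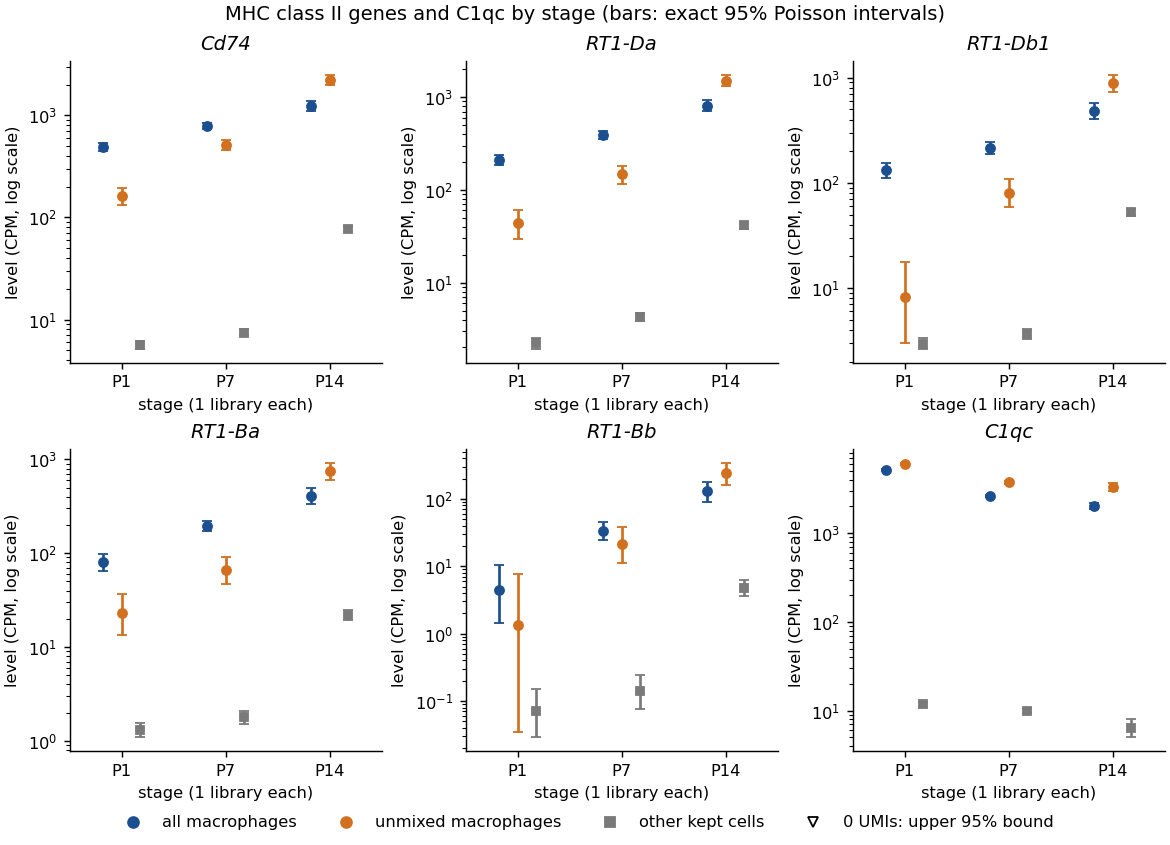
Points give the level of 5 MHC class II genes and of C1qc (y axes, CPM on a log scale) at P1, P7 and P14 (x axes, 1 library each) in all macrophages (blue), unmixed macrophages (orange) and other kept cells (grey squares), with exact 95% Poisson intervals. The orange points of the MHC class II genes climb from stage to stage, Cd74 from 160 to 2215 CPM, with 63.3% of the P14 UMIs of the 5 genes in 3 cells, while C1qc of the same cells goes from 5995 to 3331 CPM.

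Lysosomal genes had a lower summed level at P14, with 1 gene going the other way. The list summed to 14764 CPM at P1 (14539 to 14992), 13094 at P7 (12891 to 13299.7) and 9510 at P14 (9146 to 9884), and to 17000, 17044 and 11675 CPM in the unmixed macrophages. The median log2 ratio of P14 over P7 was -0.64 for its genes and -0.09 for all genes, and -0.81 and -0.12 in the unmixed macrophages. Of 18 that entered, 1 (Ctss) was lower at P7, against 3.35% of all genes. At P14 the same gene was higher and 3 (Hexa, Lgmn and Gpnmb) were lower, against 11.2% and 8.44% of all genes. Among the unmixed macrophages none passed 2-fold at P7. At P14 Ctss was higher there and 5 (Ctsd, Hexa, Lgmn, Cd63 and Gpnmb) were lower, against 12.8% and 13.1% of all genes. Ctss encodes cathepsin S, a protease that trims the invariant chain of MHC class II. It stood at 142 CPM at P1 (121 to 166), 62.8 CPM at P7 (49.5 to 78.6) and 648 CPM at P14 (556 to 751), 10.3-fold higher at P14 than at P7 (7.85 to 13.7), and the unmixed macrophages at 164, 98.7 and 1100 CPM were not past 2-fold at the first step. Its UMIs were not held by few cells, since 47.7% of thinned macrophages had 1 at P14, against 13.2% at P1 and 8.50% at P7 and at most 0.609% of the other kept cells. Gpnmb, a glycoprotein of lysosome-rich phagocytes, ran from 573 to 319 and 122 CPM, and was 2.62-fold lower at P14 than at P7 (1.84 to 3.87). Lgmn, the lysosomal protease legumain, stood at 906, 1210 and 500.9 CPM. Lgals3, a galectin of phagocytes in the list of lipid handling genes, was 3.72-fold lower at P7 than at P1 (3.26 to 4.25), at 898, 241 and 206 CPM. Of the 11 lipid genes that entered, 2 (Abcg1 and Cd9) were higher and 2 (Lgals3 and Spp1) lower at P7, against 5.58% and 3.35% of all genes. At P14, 3 (Abca1, Cd9 and Spp1) were higher and 1 (Fabp5) lower, against 11.2% and 8.44%. Cd9, Spp1 and Fabp5 had higher levels in the other kept cells than in macrophages at each stage. In the unmixed macrophages 9 lipid genes entered, without Cd9 and Spp1. At P14 none of them was higher and 2 (Fabp5 and Lgals3) were lower, against 12.8% and 13.1% of all genes. Abca1, a cholesterol exporter, stood in the unmixed macrophages at 103, 205 and 406 CPM, short of 2-fold.

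Lyz2, lysozyme, stood at 3367, 4188 and 11038 CPM and was 2.64-fold higher at P14 than at P7 (2.52 to 2.76). Unmixed macrophages held it at 2032, 4392 and 11380 CPM, higher at both steps. With a mitochondrial limit of 10% the P14 step of Lyz2 was log2 0.75, under 2-fold, against 1.40. It was found at 723 CPM in the other kept cells of P14, against 25.2 and 13.7 CPM at P1 and P7, and 4.82% of those cells had a Lyz2 UMI after thinning, against 90.8% of the macrophages. Of 8 complement genes that entered, the 2 lower at P7 were C1qa and C1qb of the rule, and Itgb2, a chain of complement receptor 3, was higher at P14 with 46.8, 47.9 and 114 CPM. Of all genes, 3.35% were lower at P7 and 11.2% higher at P14. C1qc was 1.97-fold higher at P1 than at P7 (1.88 to 2.06) in all macrophages, and 1.60-fold (1.52 to 1.69) in the unmixed ones, under the 2-fold limit. C3, the central complement protein, stood at 8.10, 10.7 and 118 CPM, 10.98-fold higher at P14 than at P7 (5.60 to 22.8), but its mean was too low to enter the count.

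**Figure D5:**
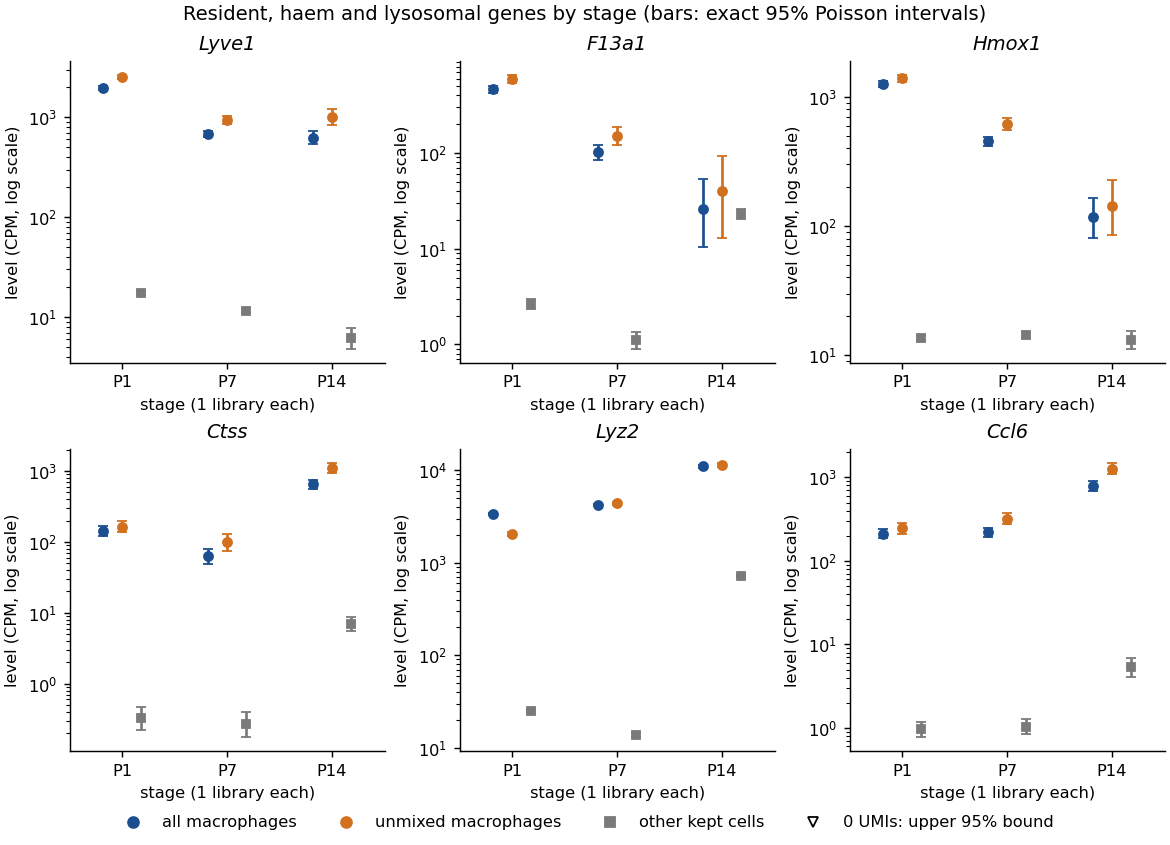
Points give the level of Lyve1, F13a1, Hmox1, Ctss, Lyz2 and Ccl6 (y axes, CPM on a log scale) at P1, P7 and P14 (x axes, 1 library each) in all macrophages (blue), unmixed macrophages (orange) and other kept cells (grey squares), with exact 95% Poisson intervals. Lyve1, F13a1 and Hmox1 are highest at P1, Hmox1 going from 1261 to 118 CPM, and Ctss, Lyz2 and Ccl6 are highest at P14, Ctss reaching 648 CPM.

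Few genes of the receptor lists passed 2-fold. None of the 5 Fc and Toll-like receptor genes that entered passed 2-fold at either step, and the 1 interferon response gene that entered did not either. Of all genes, 5.58% were higher and 3.35% lower at P7, and 11.2% were higher and 8.44% lower at P14. Of 10 cytokine receptor genes, 1 was higher at P7 and 1 lower at P14, Cx3cr1, the fractalkine receptor, with 45.9, 94.2 and 40.5 CPM. Its log2 ratio of -1.04 was short of 2-fold under 6 alternatives, between -0.98 and -0.67. Of 6 genes for the uptake of dead cells, 1 was lower at P14, Gas6, which bridges dying cells to the receptors Axl and Mertk, with 261, 284 and 107 CPM. In the unmixed macrophages 8 genes of this list entered, with 1 higher and 1 lower at P7 and 2 higher and 1 lower at P14. Of all genes in these cells, 5.36% were higher and 3.89% lower at P7, and 12.8% were higher and 13.1% lower at P14. Among the unmixed macrophages 3 of 11 cytokine receptor genes were higher at P7, against 5.36% of all genes, and 1 was higher and 1 lower at P14. Cx3cr1 and Ifngr1, a chain of the interferon gamma receptor, were among those higher at P7, Ifngr1 with 344, 713 and 1036 CPM. In the same cells Tlr2, a receptor for bacterial lipoproteins, was higher at P7 and lower at P14 with 34.0, 118 and 39.8 CPM. Of 10 myeloid transcription factors that entered, Id3 was higher at P7, Maf was higher at P14, and Irf5 and Id3 were lower at P14. Irf5, a driver of inflammatory genes, stood at 98.1, 73.5 and 29.5 CPM. Id3 stood at 127, 537 and 261 CPM, with 29.9, 77.2 and 47.8 CPM in the unmixed macrophages and 1105, 1303 and 698 CPM in the other kept cells. Apoe, the lipid carrier, was level with 12000, 12846 and 12143 CPM.

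Proliferation was read from 10 cell cycle genes, with 2 or more UMIs in a thinned cell. By this measure 8 of 129 macrophages were positive at P1 (6.20%, 2.72 to 11.9), 10 of 153 at P7 (6.54%, 3.18 to 11.7) and 2 of 109 at P14 (1.83%, 0.223 to 6.47), with overlapping intervals. Unthinned, 16.9%, 19.4% and 5.65% were positive. The other kept cells had 6.11%, 6.53% and 7.35%. Among unmixed macrophages 7 of 92 and 8 of 87 cells were positive at P1 and P7 and none of 62 at P14. Mki67, a marker of cycling cells, stood at 72.9, 58.6 and 40.5 CPM, also with overlapping intervals between neighbouring stages. In the unmixed macrophages it stood at 95.1, 96.9 and 23.9 CPM, the last from 3 UMIs. The 10 genes summed to 361, 408 and 239 CPM in all macrophages, where 2 entered and neither passed 2-fold. In the unmixed ones they summed to 463, 686 (619 to 758) and 120 CPM (66.9 to 197), the last from 15 UMIs. There 3 entered, and all 3 were lower at P14, against 13.1% of all genes.

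Many of the genes with the largest stage ratios belong to other tissue or move in all cells. Of the 10 leading genes higher at P7, Apod stood at 99.9 and 676 CPM in all macrophages at P1 and P7, but at 38.1 and 86.2 CPM in the unmixed ones and at 771 and 2266 CPM in the other kept cells. The cartilage gene Col9a1 stood at 206 and 1051 CPM, and in the unmixed macrophages at 50.3 and 122 CPM. At P14 Ptgds, a prostaglandin synthase, reached 3793 CPM and Coch, a fibrocyte gene, 1716 CPM, against 383 and 199 CPM in the unmixed macrophages and 12800 and 5850 CPM in the other kept cells. Otor, of the mesenchyme, stood at 2844 CPM at P7 and 169 CPM at P14, and at 6725 and 412 CPM in the other kept cells. LOC103690821 and Mrpl33 were higher at P14 in macrophages and in the other kept cells alike, the first with 373 and 2166 CPM in macrophages and 370 and 1512 CPM elsewhere. Of the same lists, Ctss and Ly49si1, named as a lectin-like receptor gene, stood apart, since the other kept cells held at most 10.1 CPM of either. Ly49si1 went from 33.0 to 317 CPM, 9.59-fold (6.52 to 14.3), and from 37.7 to 311 CPM in the unmixed macrophages. Spp1, osteopontin, was 8.84-fold higher at P1 than at P7 (6.21 to 12.95), but 1 cell held 78.5% of its UMIs at P1 and the other kept cells had more of it at each stage. Pla2g7, a phospholipase that degrades platelet-activating factor, stood at 131, 12.4 and 122 CPM and so was low at P7 only, and Clec2l was high there, with 18.9, 121 and 51.6 CPM, against 19.6, 51.5 and 15.8 CPM in the other kept cells. Pmepa1, a membrane protein that dampens TGF-beta signalling, led the genes higher at P7 with 13.5, 163 and 206 CPM, and the other kept cells held 32.5, 255 and 83.4 CPM.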

How the data were processed

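Gene levels were read from the count matrices the authors deposited, which hold UMI counts per gene and barcode for 32623 genes, without normalization. The authors aligned the reads to rn6 with Cell Ranger (file header version 3.1.0). Barcodes with more than 500 and fewer than 5000 genes and under 25% mitochondrial UMIs were kept. The members and the 35 gene lists were chosen with earlier results of these data known. Genes with a mean of at least 50 CPM entered stage ratios, with 10 CPM added. Named were the genes of the rule, list members, the 10 genes with the largest ratio in each direction per step (a UMI in at least 25% of the macrophages of the higher stage, intervals apart) and the 20 genes furthest above the other kept cells. Symbols shared by several identifiers were kept apart, and lists sum them. Macrophages were clustered in Seurat 5.3.0 (R 4.3.3; 2000 variable genes, 10 components, resolution 0.8). A cluster was set aside as mixed where the mesenchyme, glia or fibroblast list reached at least 3 times its median over clusters, and cluster 4 where the neutrophil list passed 1000 CPM, both rules set after the values were seen. Scrublet ran in scanpy 1.11.5. Python 3.11.15, numpy 2.4.6, scipy 1.17.1, pandas 2.3.3 and matplotlib 3.10.9 were used, and the ratio step was tested on simulated data. Alternatives covered the filters, the rule, the added CPM, thinning and the set of cells. Some listed symbols, Ccr2 and Timd4 among them, were not analysed here, since the matrices do not use them. A few genes are not reported here.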

Additional observations from a re-analysis of the deposited data

How the results depend on the processing

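No paired analysis was possible because each stage has 1 library, and for the same reason no replicate could be left out. Of the 96 stage ratios of named genes, 1248 values under the alternatives gave 1018 within the counting interval of the value reported, 226 outside it and 4 of opposite sign. These 4 were ratios of Acp5: log2 0.085 for P7 over P1 with a mitochondrial limit of 10%, and for P14 over P7 log2 -1.001 with that limit, -0.99 with the rule of C1qa, C1qb and Csf1r alone and -0.36 in the unmixed cells. A single cell held 129 of the 164 Acp5 UMIs at P1 and a single cell 25 of the 28 at P14, and the cause of the change in sign was not tested. Of 37 past 2-fold among these ratios, 12 were no longer past it under at least 1 alternative, among them Egr1 at P14 after thinning, at log2 0.65, and those of Ctss at P7 and of Cd163, Cx3cr1, F13a1, Lyz2 and the MHC class II genes given above. Leaving out cells under 30 per 10000 from the unmixed cells was chosen after seeing the data. The percent of kept cells that are macrophages at P7 was 0.722 with a mitochondrial limit of 10%. The percent of kept cells that are macrophages at P14 was 1.89 with C1qa, C1qb and Csf1r alone and 1.89 with a threshold of 30 per 10000. In the unmixed cells it was 0.728 at P1, 0.707 at P7 and 1.44 at P14, and the percent with 2 or more proliferation UMIs at P14 was 0. The numbers of genes past 2-fold, given as higher and lower at P7 and then higher and lower at P14, were 52, 47, 175 and 75 with 50 CPM added, 75, 59, 148 and 128 with a mean of at least 100 CPM, 456, 203, 1057 and 646 with no filter on level, and 273 and 184 at P7 after thinning to 1000 UMIs. A higher amount added or a higher filter leaves fewer genes to pass by construction, and the cause of the other shifts was not tested. With 1 library a stage the spread between animals is unknown, and the P14 levels rest on fewer UMIs than those of P1 and P7.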

Other observations

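The condition on Cd79b, a component of the B cell receptor, left out 17 cells at P1, 13 at P7 and 1 at P14 that met the rest of the rule. Of them, 16, 13 and 1 had a single Cd79b UMI. Their C1qa level was 6308 CPM at P1, 2395 CPM at P7 and 1221 CPM at P14, and they had no UMI of the B cell genes Igll1, Vpreb1 and Pax5.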
